A study of Mus musculus with 24 samples.

Results

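Mesenchymal stromal cells (MSC) sorted from mouse hindlimb muscle 1 day after cardiotoxin injection were compared with MSC from uninjured hindlimb muscle. The libraries were chosen by their labels, 3 from injured and 3 from uninjured muscle, which are 6 of the 24 libraries of the series. All 52997 gene symbols of the count table were considered, and 16263 of them had enough counts to be tested. Every mouse was a C57BL/6 animal aged 8 weeks with no engineered allele named in the labels. Cardiotoxin is a snake venom toxin that kills muscle fibers and spares much of the resident tissue around them, and the uninjured group is described only as uninjured. MSC were gated as cells without CD45 and CD31 and with Sca1 and PDGFRa, and about 1000 of them were sorted 2 times per library. The other 18 libraries, from hematopoietic cells (CD45+), endothelial cells (CD31+) and muscle stem cells (MuSC) of the same 2 conditions, entered the statistical model.

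Stromal cells of this gate are also called fibro-adipogenic progenitors. They lie between the muscle fibers and make much of the collagen and other matrix of the tissue. After damage they enter the cell cycle and send signals to incoming leukocytes and to muscle stem cells, and most of the added cells are later cleared. When repair fails they can give rise to scar tissue and fat.

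Of the 16263 genes tested, 2977 (18.3%) rose and 3831 (23.6%) fell in injured MSC at an adjusted p below 0.05 in edgeR's quasi-likelihood test. Both directions together made 41.9% of the genes. The shares of 18.3% and 23.6% are the background for each list count below. Which direction held more genes depended on the libraries kept, the filter and the fit. Without injured replicate 1, 2956 rose and 2258 fell. Rises also outnumbered falls without uninjured replicate 1 (3147 and 2582), uninjured replicate 2 (3136 and 2601) or uninjured replicate 3 (3166 and 2791). Falls stayed ahead without injured replicate 2 or 3. Fits without 1 MSC library tested more genes, 17267 to 17319. With all MSC libraries kept, rises were ahead with no filter on low counts (3372 and 2792) and in the 6 MSC libraries alone (3667 and 3453). More than a 2-fold change was seen for 1725 of the rises (10.6% of all genes tested) and 2663 of the falls (16.4%). For 8937 genes (55%) the 3 injured libraries were all above or all below the 3 uninjured ones, and the median gene had a log2 fold change of -0.22. Levels are in CPM, read counts scaled to equal library totals, on scaled library sizes, group levels are means ± SD (n = 3 each), and fold changes are log2 of injured over uninjured ± SE. Adjusted p-values are those of edgeR's quasi-likelihood test with Benjamini-Hochberg adjustment over all genes tested unless another fit is named. Library totals were 5492272 to 7259626 counts in injured and 5128365 to 7649841 in uninjured MSC, so that 3 counts equal 0.419 to 0.539 CPM in an injured library and 0.503 to 0.672 CPM in an uninjured one. Correlations of log CPM were 0.969 to 0.985 between libraries of a group and 0.884 to 0.920 between the groups. The 10 genes with most counts held 8.80 to 10.6% of the counts of an injured library and 17.9 to 20.9% of those of an uninjured one. The labels call the 3 libraries biological replicates. Unless another fit is named, p-values rest on the spread within all 8 groups of the 24 libraries, not within the MSC groups alone. That spread may in part be technical. RNA was measured in bulk, so fewer cells of a type and less RNA per cell cannot be told apart.

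**Figure D1:**
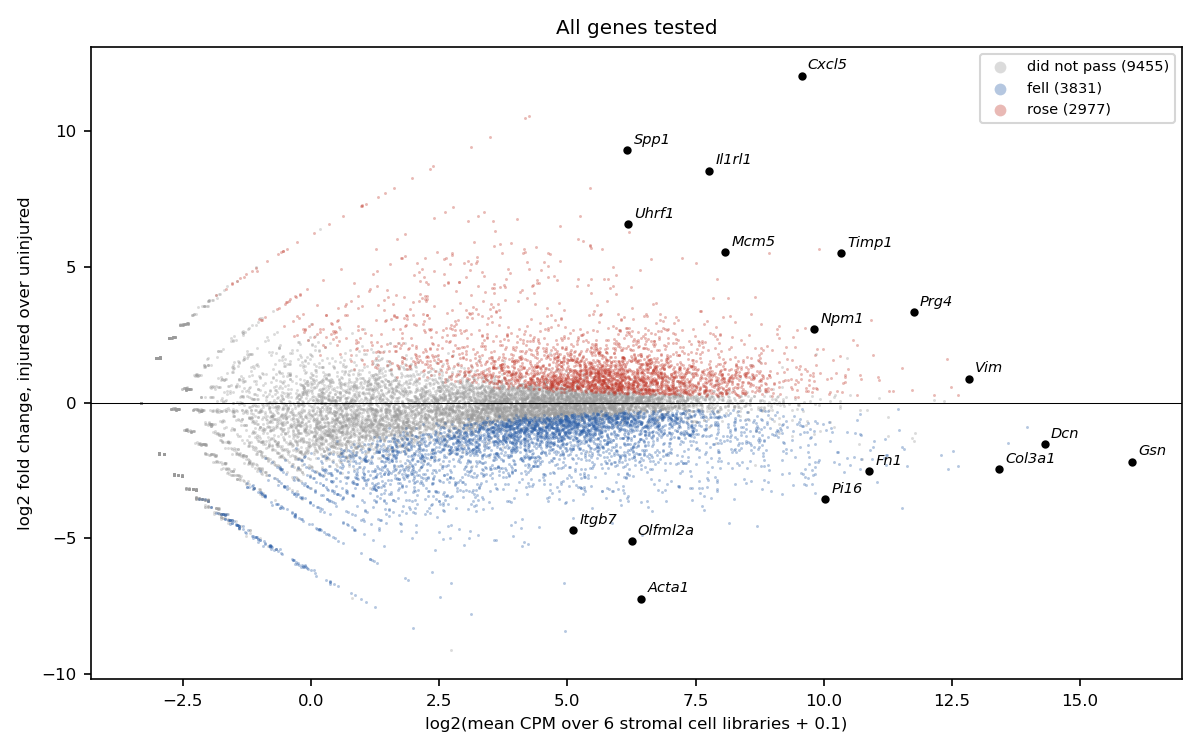
Each point is a gene tested, with the log2 of its mean CPM over the 6 stromal cell libraries (plus 0.1) on the horizontal axis and the log2 fold change of injured over uninjured cells on the vertical axis; red points rose (2977), blue points fell (3831) and grey points did not pass. Cxcl5, Spp1 and Il1rl1 lie at the top, while Gsn, Dcn and Col3a1 at the far right lie below 0.

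The gate genes Pdgfra and Ly6a, which encode PDGFRa and Sca1 on the cell surface, were well expressed in both groups. Pdgfra had 609.9, 735 and 614 CPM in the injured libraries, against 607, 526 and 572 CPM in the uninjured libraries. Ly6a had 1666, 2573 and 1847 CPM in the injured libraries, against 3134, 2790.0 and 2733 CPM in the uninjured libraries. The injured libraries lay above the uninjured ones for Pdgfra and below them for Ly6a, and neither difference passed (adjusted p = 0.845 and 0.298). Dcn, the gene of the collagen-binding proteoglycan decorin, had 9038, 11798 and 10345 CPM in the injured libraries, against 32838, 29749 and 27836 CPM in the uninjured libraries. All 3 injured libraries of Dcn were lower, and the test still did not pass (log2 fold change -1.54, adjusted p = 0.311).

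For such genes the result depended on the fit. In the fit to 24 libraries the quasi-dispersion of Dcn, the spread beyond that of counting, was 25.9, and in a fit to the 6 MSC libraries alone it was 0.502. MuSC libraries from injured muscle, which share the model, held between 16.7 and 354 CPM of Dcn. Over the 29 genes of a stromal identity list the median quasi-dispersion was 3.15 in the fit to 24 libraries and 1.23 in the fit to 6, while over all genes tested in both it was 0.8396 and 0.684. With limma voom on the same 24 libraries Dcn (adjusted p = 2.34e-07) and Ly6a (9.71e-04) fell too. In the MSC libraries alone Dcn fell (log2 fold change -1.41, adjusted p = 4.14e-06), Ly6a fell (-0.38, adjusted p = 0.0457) and Pdgfra rose (0.33, adjusted p = 0.01798).

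Of the stromal identity genes, 18 fell and 0 rose against 23.6% and 18.3% of all genes, and 26 did not overlap between the groups, against 55% of all genes. With limma voom 25 fell and 0 rose. The fit to the 6 MSC libraries alone gave 25 falls and 1 rise, the rise being Pdgfra, against 27.8% and 29.5% of the genes it tested. The list's median log2 fold change was -2.05, against -0.22 for all genes. Pi16 and Dpp4, which mark a stromal subset found around vessels and in connective tissue sheets, were among the falls. Pi16 had 113, 306 and 72.1 CPM in the injured libraries, against 2387, 2242 and 1165 CPM in the uninjured libraries. Dpp4 had 17.1, 39.1 and 12.8 CPM in the injured libraries, against 198, 215 and 139.5 CPM in the uninjured libraries. Every injured library was below every uninjured one for both (Pi16: log2 fold change -3.56 ± 0.51, adjusted p = 3.77e-05; Dpp4: log2 fold change -3.00 ± 0.35, adjusted p = 5.43e-07). Cd55, a complement regulator, and Clec3b, the gene of the plasminogen-binding protein tetranectin, fell 7.19-fold and 11.4-fold. Fbln1, a fibulin of the matrix, was at 209 ± 106 CPM in injured cells, against 1377 ± 458 CPM in uninjured cells (log2 fold change -2.72 ± 0.43, adjusted p = 5.19e-05), and Tcf7l2, a Wnt effector used as a marker of muscle connective tissue cells, fell 2.01-fold. Col15a1, a collagen gene of another stromal subset, fell 5.67-fold, and Gdf10, a TGF-beta family ligand, had 152 against 763 CPM in injured against uninjured cells, a fall that did not pass in DESeq2 (adjusted p = 0.303).

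Defining markers of the other sorted populations were at or near 0 in both groups. Myod1 was at 0 in all 6 libraries and Pax7 in 5 of them, and neither Cdh5, Pecam1, Ptprc nor Lyz2 passed 2 CPM in any library. The summed level of 11 endothelial markers was 25.2 to 32.7 CPM in injured and 96.9 to 122 CPM in uninjured libraries, and in uninjured libraries most of it came from Tek, the angiopoietin receptor, with 11.3 against 107 CPM in injured against uninjured cells. Tek was the 1 fall of this list (3 fell without injured replicate 2 and in DESeq2), while Aqp1, a water channel gene, with 10.5, 4.97 and 9.71 CPM in injured cells and 1.51, 0.896 and 1.33 CPM in uninjured cells, and Egfl7, an endothelial matrix gene, with 5.31, 2.65 and 4.13 CPM in injured cells and 0, 0.672 and 0 CPM in uninjured cells, rose. Leukocyte markers (17 genes) summed to 2.66 to 8.79 CPM in injured and 8.00 to 15.7 CPM in uninjured libraries, and none of them passed. Pericyte and smooth muscle markers summed to 96.6 to 132 CPM in injured libraries and 212 to 232 CPM in uninjured ones. Muscle satellite cell markers summed to 98.3 to 148 CPM and 83.8 to 92.5 CPM, mostly from Vcam1, an adhesion gene that stromal cells also express. Schwann cell markers, mostly Pmp22, summed to 619 to 632 CPM in injured and 1605 to 1778 CPM in uninjured libraries, and tendon markers, mostly Thbs4, to 1054 to 1776 CPM and 443 to 1123 CPM. Thbs4 did not pass, and of the 7 tendon markers 4 fell and 0 rose, with 1 fall without any 1 of the injured replicates, 2 without uninjured replicate 1 and 0 without uninjured replicate 2.

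Transcripts of muscle fibers, the cells that cardiotoxin kills, had the lowest median fold change of the cell type lists. Of 15 fiber genes tested, 12 fell and none rose, with a median log2 fold change of -4.89. Acta1, skeletal muscle actin, had 0, 2.32 and 1.26 CPM in the injured libraries, against 248, 188 and 80.4 CPM in the uninjured libraries. Ckm, muscle creatine kinase, had 0, 2.49 and 0.539 CPM in the injured libraries, against 55.97, 34.5 and 18.4 CPM in the uninjured libraries. Both transcripts were near 0 in all 3 injured libraries and clearly detected in all 3 uninjured ones. The list's summed level was 168 to 212 CPM in injured and 337 to 663 CPM in uninjured libraries and included Tpm1 and Tpm2, which stromal cells also express. The part of fiber RNA in the results for other genes was not tested.

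**Figure D2:**
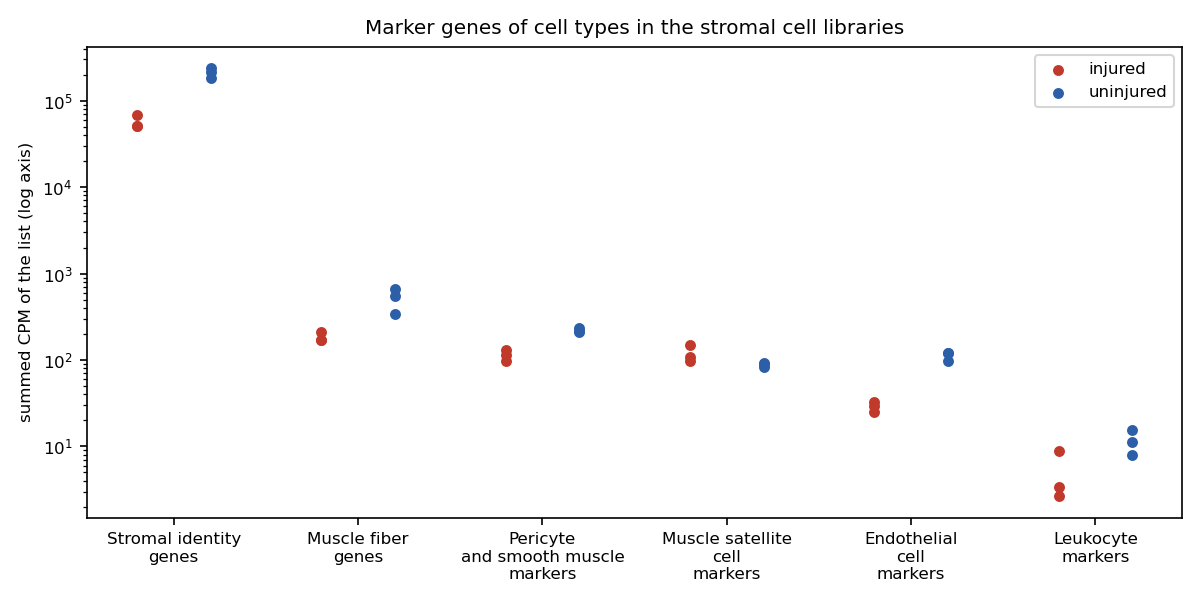
Summed CPM of marker lists (log axis) in the 3 injured (red, left of each pair) and 3 uninjured (blue, right) stromal cell libraries, 1 point per library. Stromal identity genes lie at 50835 to 68615 CPM in injured and 182464 to 236055 CPM in uninjured libraries, far above the lists of the other cell types.

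Chemokine genes that attract neutrophils and monocytes were among the strongest rises. Of 6 neutrophil-attracting CXC chemokine genes tested, 5 rose and none fell, with 1 more member below the filter on low counts. Cxcl5 (chromosome 5, 90759360 to 90761624 on GRCm38) had 1833, 1520.4 and 1198 CPM in the injured libraries, against 0.503, 0.224 and 0.222 CPM in the uninjured libraries. Cxcl1 (chromosome 5, 90891241 to 90893115) had 572, 550.3 and 437 CPM in the injured libraries, against 38.04, 38.98 and 94.2 CPM in the uninjured libraries. Both ligands act on CXCR2, a neutrophil receptor, and all injured libraries were higher (Cxcl5: log2 fold change 12.05 ± 1.89, adjusted p = 4.10e-04; Cxcl1: log2 fold change 3.19 ± 0.45, adjusted p = 1.40e-05). Cxcl3 had 416 counts over the 3 injured libraries and 0 over the 3 uninjured libraries, at least 110.4-fold higher in injured cells with 3 counts over the uninjured group taken as the floor (adjusted p = 9.71e-07). Cxcl2 had 181 counts over the 3 injured libraries and 0 over the 3 uninjured libraries, at least 48.1-fold higher on the same floor (adjusted p = 0.00472). Cxcl1, Cxcl2 and Cxcl3 are close copies of each other, and the rule by which reads were split between them is not given in the sources used here.

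The promoters of Cxcl1 and Cxcl2 are printed because letters of the kappaB site, the DNA element bound by NF-kB, stand in clusters close to the start of these genes. Each is the 300 bases of RefSeq from 250 before to 50 after the transcript start on GRCm38.p6, 5′ to 3′ on the gene's strand, with matches in capitals to GGG, any 3 bases and TTCC on either strand. Cxcl1 is at chr5:90890995-90891294 and Cxcl2 at chr5:90903649-90903948, both on the plus strand.

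Cxcl1: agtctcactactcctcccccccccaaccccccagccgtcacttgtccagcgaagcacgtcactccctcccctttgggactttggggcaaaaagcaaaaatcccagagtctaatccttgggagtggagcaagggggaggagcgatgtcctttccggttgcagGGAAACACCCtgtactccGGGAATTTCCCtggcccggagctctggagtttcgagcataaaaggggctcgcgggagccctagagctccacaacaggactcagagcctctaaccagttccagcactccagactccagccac

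Cxcl2: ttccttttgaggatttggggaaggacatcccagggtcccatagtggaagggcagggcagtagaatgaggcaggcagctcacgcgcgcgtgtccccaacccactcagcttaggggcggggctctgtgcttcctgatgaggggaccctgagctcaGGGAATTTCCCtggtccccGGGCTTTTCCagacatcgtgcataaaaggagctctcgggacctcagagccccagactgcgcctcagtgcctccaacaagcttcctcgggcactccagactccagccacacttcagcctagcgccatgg

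Cxcl1 held matches that begin 89, 71 and 70 bases before the start, and Cxcl2 held matches that begin 97, 96 and 78 bases before it. The pairs that begin 1 base apart are the same stretch read on both strands. Cxcl3 also held the letters, so that 3 of the 5 tested CXC chemokine genes with a RefSeq promoter did, against 7.262% of the 11347 tested genes with one. A match is a description of letters, and binding was not measured.

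Of 16 CC chemokine genes tested, 3 rose and 2 fell (1 without injured or uninjured replicate 1), shares near or below the 18.3% and 23.6% of all genes, and 3 more were below the filter. Ccl2 (chromosome 11, 82035571 to 82037453), the main monocyte attractant, had 2389, 1213 and 2068 CPM in the injured libraries, against 30.0, 33.4 and 49.8 CPM in the uninjured libraries. Ccl7 (chromosome 11, 82045712 to 82047525), a ligand of the same receptor, had 1097, 795 and 984 CPM in the injured libraries, against 19.9, 15.9 and 26.4 CPM in the uninjured libraries. The injured libraries of both lay far above the uninjured ones (Ccl2: log2 fold change 5.65 ± 0.84, adjusted p = 7.05e-05; Ccl7: log2 fold change 5.53 ± 0.61, adjusted p = 1.19e-06). Ccl9, a chemokine of myeloid cells, had 111 counts over the 3 injured libraries and 0 over the 3 uninjured libraries and was at least 29.5-fold higher (adjusted p = 0.00529). Ccl11, the eosinophil attractant eotaxin, moved the other way and had 194, 147 and 213 CPM in the injured libraries, against 627, 528 and 984 CPM in the uninjured libraries. Its 3 injured libraries were the lower ones (log2 fold change -1.95 ± 0.34, adjusted p = 1.17e-04). Cxcl14, a chemokine of fibroblasts and epithelia, had 2117 ± 337 CPM in injured cells, against 681 ± 124 CPM in uninjured cells and did not pass (adjusted p = 0.08896). It rose with limma voom on the 24 libraries and in the 6 MSC libraries alone (adjusted p = 8.39e-06 in the latter).

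**Figure D3:**
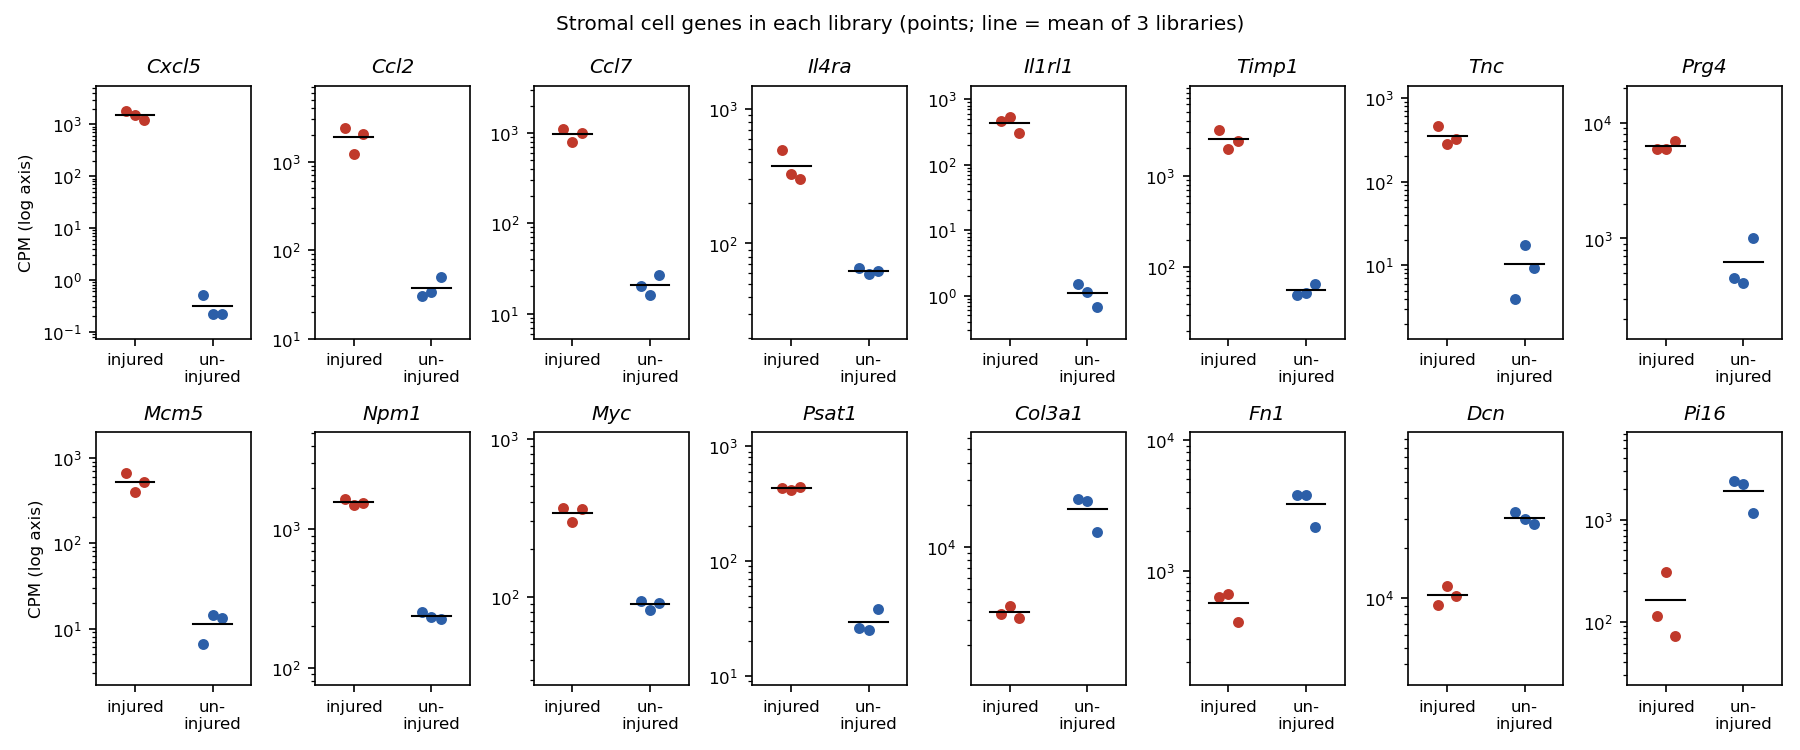
CPM (log axis, a separate range per panel) of 16 genes in the 3 injured (red, left) and 3 uninjured (blue, right) stromal cell libraries, with a line at each group's mean. The groups are apart in each of the 16 panels, with the injured libraries higher from Cxcl5 to Psat1 and lower for Col3a1, Fn1, Dcn and Pi16.

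Cytokine and cytokine receptor genes changed on both sides of the signal. Il6, which drives the acute-phase response and acts on muscle stem cells, had 31.7, 24.9 and 18.2 CPM in the injured libraries, against 0, 0.672 and 0.666 CPM in the uninjured libraries. It was at or below 1 CPM in all uninjured libraries and above 10 CPM in all injured ones (log2 fold change 5.84 ± 0.85, adjusted p = 8.93e-06). Clcf1, a relative of Il6 that signals through the CNTF receptor, had 35.7 ± 6.25 CPM in injured cells, against 7.73 ± 3.64 CPM in uninjured cells (4.64-fold higher, adjusted p = 1.70e-04). Osmr, the oncostatin M receptor, rose 2.59-fold, while the related receptors Lifr and Il11ra1 fell 2.00-fold and 2.04-fold. In all, 3 of 13 members of the IL-6 family list rose and 4 fell, shares not far from the 18.3% and 23.6% of all genes. The falls were 2 without injured replicate 1 or without uninjured replicate 1.

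Il1rl1 encodes ST2, the receptor of the alarmin interleukin 33, and had 466, 529 and 306 CPM in the injured libraries, against 1.51, 1.12 and 0.666 CPM in the uninjured libraries. Uninjured libraries were at or below 2 CPM and injured ones far above (log2 fold change 8.55 ± 1.27, adjusted p = 6.30e-05). Il33 itself, which stromal cells make, had 644, 558 and 466 CPM in the injured libraries, against 200.2, 219 and 213 CPM in the uninjured libraries. Its injured libraries were all higher, and the difference did not pass (adjusted p = 0.0773). It passed with limma voom on the 24 libraries and in the 6 MSC libraries alone (adjusted p = 2.06e-06 in the latter). Il4ra, the receptor chain for interleukins 4 and 13, had 491, 330.0 and 302 CPM in the injured libraries, against 66.02, 59.1 and 62.2 CPM in the uninjured libraries. Its injured libraries were the higher ones (log2 fold change 2.58 ± 0.30, adjusted p = 8.48e-07), and its partner chain Il13ra1 rose 2.32-fold. Il1r1, the interleukin 1 receptor, rose 1.97-fold. Il18 fell 6.69-fold (adjusted p = 3.91e-08), and its receptor Il18r1 had 1 count over the 3 injured libraries and 118 over the 3 uninjured libraries, lower in injured cells by a ratio of 148 (95% counting interval 26.1 to 5901). The uninjured libraries had 14.6, 6.05 and 0.889 CPM of Il18r1, a spread that the counting interval does not cover.

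Csf1, the growth factor of macrophages, had 491, 377 and 428 CPM in the injured libraries, against 203, 196 and 159 CPM in the uninjured libraries. Injured libraries were higher in each case (log2 fold change 1.21 ± 0.21, adjusted p = 8.10e-05). Csf1 was the 1 rise among 4 tested genes of a colony-stimulating factor list, and 2 fell, against 18.3% and 23.6% of all genes. Leaving out any 1 MSC library gave 1 fall, and without uninjured replicate 2 there were 2 rises. Of 13 genes of the TNF superfamily list, 7 rose and 1 fell. The list also holds Tnfaip6, neither a ligand nor a receptor of that family. Tnfrsf12a, the receptor of TWEAK, had 304 ± 52.5 CPM in injured cells, against 46.4 ± 8.62 CPM in uninjured cells (log2 fold change 2.71 ± 0.24, adjusted p = 1.25e-08). Tnfrsf11b, the decoy receptor osteoprotegerin, had 61.2, 24.9 and 16.5 CPM in injured cells and 1.01, 0.672 and 0.444 CPM in uninjured cells. Its ligand RANKL, from Tnfsf11, had 73 counts over the 3 injured libraries and 0 over the 3 uninjured libraries, at least 19.4-fold higher. Thus ligand and decoy were both close to 0 in uninjured and detected in injured cells.

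BMP and TGF-beta family genes fell more often than they rose. Of 24 genes of the BMP, GDF and activin list, 11 fell and 4 rose, and of 14 genes of the TGF-beta list 9 fell and 1 rose, against 23.6% and 18.3% of all genes. The BMP list had 7 falls without uninjured replicate 2. Bmp4 had 19.9, 40.1 and 30.9 CPM in the injured libraries, against 168, 151 and 177 CPM in the uninjured libraries. Tgfb2 had 32.6, 30.5 and 25.9 CPM in the injured libraries, against 124, 117 and 148 CPM in the uninjured libraries. Both ligands were lower in all injured libraries (Bmp4: log2 fold change -2.45 ± 0.26, adjusted p = 1.69e-07; Tgfb2: log2 fold change -2.13 ± 0.24, adjusted p = 1.29e-07). Tgfb3, Bmp7 and the receptor gene Tgfbr2 fell 4.07-fold, 22.4-fold and 2.097-fold. Ltbp4, which holds latent TGF-beta in the matrix, fell 4.01-fold, and Ltbp2, a relative bound to elastic fibers, rose 31.6-fold (adjusted p = 2.82e-07).

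Among the 11 genes of the IGF list, 6 fell and none rose, and 3 fell without injured replicate 1 or without uninjured replicate 1. Besides ligands and binding proteins, this list holds the receptor genes Igf1r and Igf2r and the protease genes Pappa and Pappa2. Igfbp6 had 414, 661 and 404 CPM in the injured libraries, against 4339, 3783 and 3057 CPM in the uninjured libraries, and Igfbp5 fell 7.64-fold. The injured Igfbp6 libraries were all below the uninjured ones (log2 fold change -2.92 ± 0.37, adjusted p = 4.58e-06). Igf1, which feeds fiber growth, had 157 ± 28.0 CPM in injured cells, against 368 ± 33.3 CPM in uninjured cells, and its fall (adjusted p = 0.00748) was lost with no filter on low counts (0.0903), without injured replicate 1 (0.0825) and without uninjured replicate 1 (0.0533).

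Of 17 genes of the VEGF, angiopoietin and PDGF list 9 fell and 2 rose (1 without injured replicate 1). Vegfc, which acts on lymphatic vessels, fell 5.82-fold, and Angpt4, an angiopoietin, fell 8.08-fold. Angptl4, an inhibitor of lipoprotein lipase, had 951, 1169.8 and 831 CPM in the injured libraries, against 116, 196 and 103 CPM in the uninjured libraries. It was higher in all injured libraries (log2 fold change 2.84 ± 0.43, adjusted p = 3.64e-05), and Lpl, the lipase gene, was lower, with 246 ± 9.03 CPM in injured cells, against 1352 ± 321 CPM in uninjured cells (log2 fold change -2.46 ± 0.22, adjusted p = 1.15e-08). Hbegf, an EGF receptor ligand, rose 8.28-fold (adjusted p = 7.95e-05). It was 1 of 3 rises against 0 falls among 8 genes of an EGF family list. That list also holds the receptor gene Egfr and the receptor inhibitor gene Errfi1, which was another of the rises.

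Wnt and hedgehog genes mostly fell, with 12 falls and 1 rise among 22 Wnt ligand and modulator genes. Sfrp2, a secreted Wnt modulator, had 110.0, 135 and 43.9 CPM in the injured libraries, against 1226, 1267 and 238 CPM in the uninjured libraries. Lgr5, a receptor for R-spondins, had 0.2796, 1.33 and 0.1797 CPM in injured cells and 20.6, 23.5 and 4.66 CPM in uninjured cells, and its ligand gene Rspo2 fell 26.9-fold. All 3 members were lower in every injured library. Wisp1, a matricellular Wnt target, was the rise, with 119 ± 29.98 CPM in injured cells, against 13.8 ± 0.443 CPM in uninjured cells (log2 fold change 3.10 ± 0.43, adjusted p = 7.82e-06). In the Notch and hedgehog list 12 of 17 genes fell and 1 rose. Gli1 and Hhip, which hedgehog signaling switches on, fell 11.2-fold and 11.9-fold, and the co-receptor gene Boc fell 3.96-fold.

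Transcription factor genes moved in both directions. Myc (chromosome 15, 61985391 to 61990374) had 364, 299 and 359 CPM in the injured libraries, against 93.8, 83.1 and 91.5 CPM in the uninjured libraries. The groups were well apart (log2 fold change 1.93 ± 0.14, adjusted p = 1.58e-10), and Mxd4 and Mga, which oppose Myc at its target sites, fell 2.84-fold and 1.94-fold. Fosl1, an AP-1 subunit, had 77.3, 94.8 and 83.8 CPM in the injured libraries, against 1.68, 0.672 and 2.22 CPM in the uninjured libraries. Its uninjured libraries were all near the limit of detection (log2 fold change 5.77 ± 0.50, adjusted p = 1.16e-08). Junb rose 1.89-fold and Jun fell 1.73-fold. Runx1, a factor that stromal and muscle cells induce on damage, had 55.6, 28.3 and 46.2 CPM in the injured libraries, against 3.69, 6.05 and 4.44 CPM in the uninjured libraries. It was higher in all injured libraries (log2 fold change 3.21 ± 0.27, adjusted p = 1.38e-09), as was Runx2 (3.89-fold).

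In the NF-kB list, which holds subunits and feedback inhibitors, 10 of 15 genes rose and 1 fell. Nfkb2 and Relb, the subunits of the alternative pathway, rose 2.72-fold and 2.35-fold, and Nfkbia, the inhibitor that NF-kB itself induces, rose 1.87-fold. Of 12 genes of a STAT3 target and feedback list 5 rose, 1 fell and 6 did not pass, against 18.3% rising and 23.6% falling of all genes. Stat3 rose 1.53-fold and Socs3, the feedback inhibitor of the IL-6 receptor, had 281, 277 and 294 CPM in the injured libraries, against 78.3, 72.6 and 89.97 CPM in the uninjured libraries. Socs3 was higher in all injured libraries (log2 fold change 1.82 ± 0.25, adjusted p = 3.96e-06). Saa3, an acute-phase gene, had 84.99, 60.3 and 114 CPM in injured cells and 0, 0 and 1.11 CPM in uninjured cells (log2 fold change 7.89 ± 0.75, adjusted p = 2.21e-07). The metallothionein genes Mt1 and Mt2, metal-binding proteins induced by stress and glucocorticoids, rose 6.79-fold and 15.1-fold.

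Kruppel-like factor genes fell in 9 of 10 cases and rose in none. Klf4 had 32.4, 60.3 and 42.96 CPM in the injured libraries, against 216, 188 and 232 CPM in the uninjured libraries, and Klf2 had 1.96, 3.48 and 2.52 CPM in injured cells and 15.2, 18.1 and 30.7 CPM in uninjured cells. Injured libraries were lower for both (Klf4: log2 fold change -2.23 ± 0.18, adjusted p = 5.83e-10; Klf2: log2 fold change -3.00 ± 0.37, adjusted p = 4.83e-07). Foxo1, a factor active when insulin signaling is low, fell 3.44-fold. Clock genes fell in 9 of 16 cases and rose in 1, among the falls Nr1d1, a repressor of the clock (6.65-fold lower), Cry2 (2.71-fold) and Per3 (2.65-fold). Without injured replicate 1 or uninjured replicate 3 the clock list had 5 falls. No source used here gives the time of day of tissue collection, so clock phase and injury cannot be told apart.

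**Figure D4:**
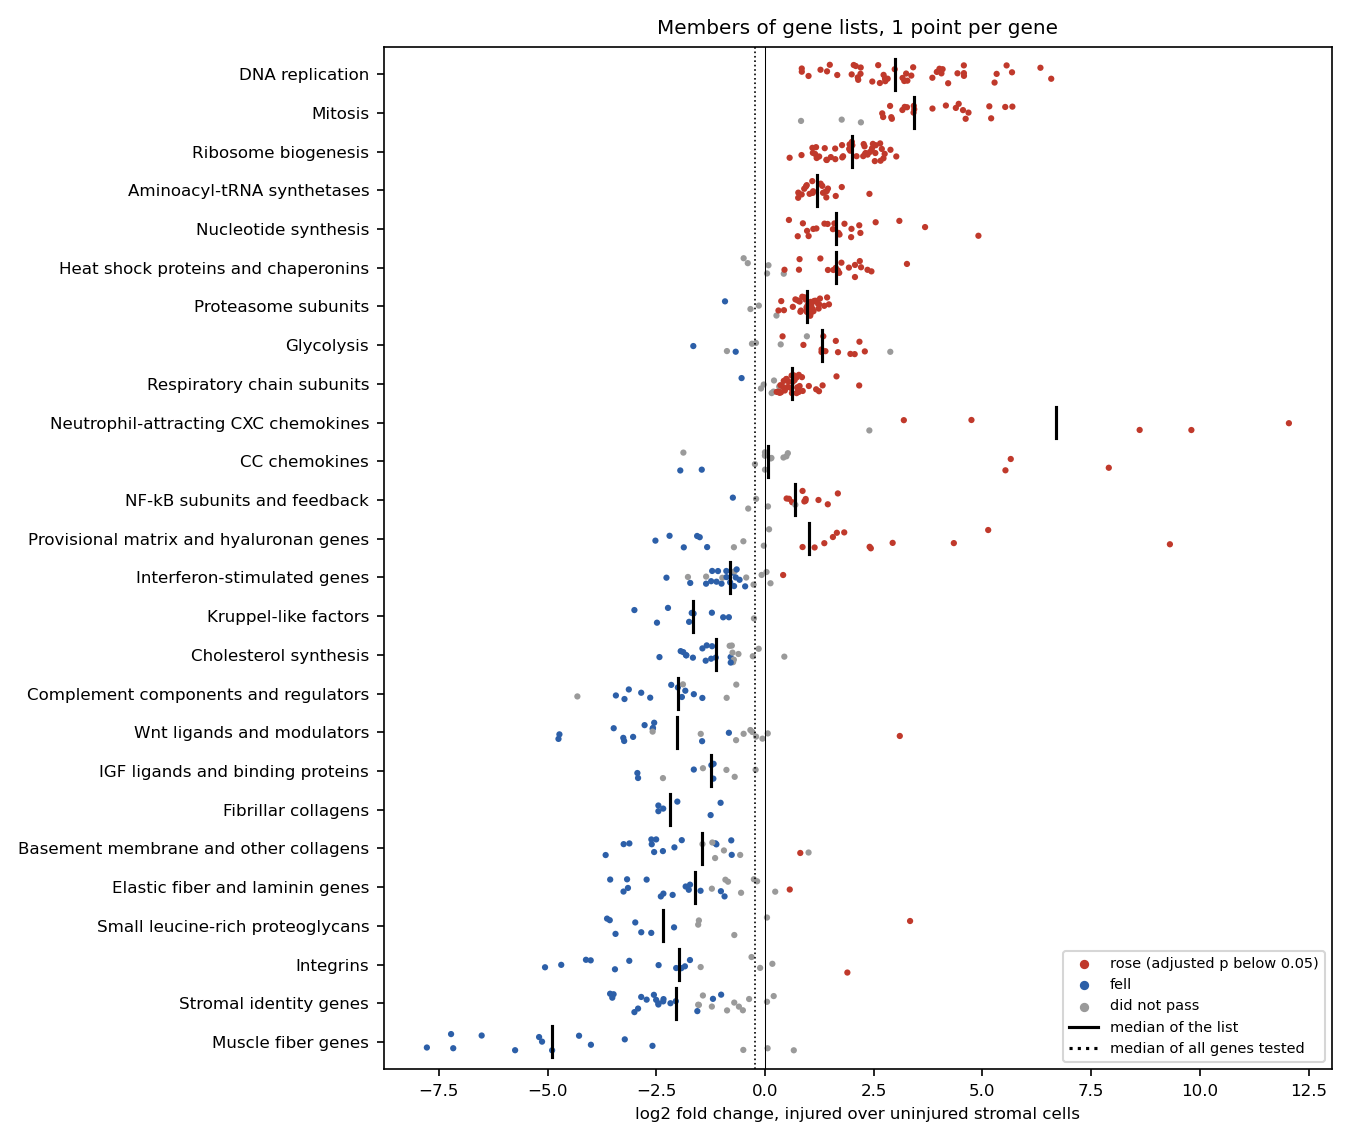
Log2 fold changes of injured over uninjured stromal cells for the tested members of 26 gene lists, 1 point per gene (red rose, blue fell, grey did not pass), with a black bar at each list's median and a dotted line at the median of all genes (-0.22). Lists of DNA replication, ribosome production and tRNA charging lie wholly to the right of 0, and fibrillar collagens and Kruppel-like factors wholly to the left.

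Genes of DNA replication and mitosis rose nearly throughout. All 45 genes of the DNA replication list rose, with a median log2 fold change of 2.98, and 22 of 25 mitosis genes rose with a median of 3.42. Mcm5 (chromosome 8, 75109569 to 75128439), a subunit of the replicative helicase, had 661, 397 and 526 CPM in the injured libraries, against 6.54, 14.3 and 13.3 CPM in the uninjured libraries. Cdc6 (chromosome 11, 98907801 to 98923940), which loads that helicase, had 116, 50.9 and 86.8 CPM in the injured libraries, against 3.85, 3.14 and 3.55 CPM in the uninjured libraries. Rrm2, the regulated subunit of ribonucleotide reductase, had 356, 66.8 and 154 CPM in the injured libraries, against 2.18, 7.62 and 5.55 CPM in the uninjured libraries. In each, the injured libraries lay at least several times above the highest uninjured one (Mcm5: log2 fold change 5.56 ± 0.29, adjusted p = 4.71e-12; Cdc6: log2 fold change 4.57 ± 0.47, adjusted p = 6.87e-08; Rrm2: log2 fold change 5.28 ± 0.76, adjusted p = 2.46e-05).

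Cdc6 is a known target of E2F factors, which switch on S phase genes, and its promoter holds letters of the E2F site. The match to TTTNNCGC, on the opposite strand, is in capitals and begins 138 bases before the RefSeq start (GRCm38.p6, chr11:98907901-98908200, plus strand). GENCODE places the start of Cdc6 upstream of this window, at the position given above, so in that annotation the match lies inside the gene.

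Cdc6: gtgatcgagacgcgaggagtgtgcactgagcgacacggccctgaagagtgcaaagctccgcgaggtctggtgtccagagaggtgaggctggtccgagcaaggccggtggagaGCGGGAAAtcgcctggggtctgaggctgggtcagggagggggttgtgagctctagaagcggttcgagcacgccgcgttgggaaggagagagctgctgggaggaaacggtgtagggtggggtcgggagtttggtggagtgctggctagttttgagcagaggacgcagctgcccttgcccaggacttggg

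Among the 37 DNA replication genes with a RefSeq promoter, 16 (43.243%) held these letters on either strand, against 9.236% of the tested genes with one. The letters are a description of these windows and were not tested for binding.

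Of 22 genes of the G1 cyclin, kinase and inhibitor list, 11 rose and 4 fell. Ccne1, cyclin E1, had 107, 41.1 and 70.8 CPM in the injured libraries, against 0.838, 1.57 and 0.889 CPM in the uninjured libraries. Ccnd1, cyclin D1, and its kinase Cdk4 rose 3.86-fold and 2.97-fold. The inhibitor genes Cdkn1b and Cdkn1c, which hold cells out of the cycle, were lower, with 14.9 against 51.8 CPM and 1.66 against 16.02 CPM in injured against uninjured cells (adjusted p = 4.24e-07 and 8.58e-05). Ccne1 was near 1 CPM in uninjured cells and far higher in all injured libraries. Cdk1, the mitotic kinase, had 142, 33.3 and 82.1 CPM in injured cells and 0.168, 4.26 and 0.889 CPM in uninjured cells, and Top2a, which untangles DNA in mitosis, had 84.7, 16.9 and 51.2 CPM in injured cells and 1.17, 4.704 and 0.222 CPM in uninjured cells. Both were higher in all 3 injured libraries (Cdk1: log2 fold change 5.69 ± 0.83, adjusted p = 2.52e-05; Top2a: log2 fold change 4.68 ± 0.86, adjusted p = 2.49e-04). Mki67, a proliferation antigen gene, had 43.6, 5.802 and 19.6 CPM in injured cells and 0.503, 4.03 and 2.22 CPM in uninjured cells (adjusted p = 0.01597), and its call was lost in 4 of the 13 alternatives, among them without injured replicate 1 (adjusted p = 0.0826) and without uninjured replicate 1 (0.06402). The number of mitosis genes that rose ran between 11 and 23 across the alternatives and was 14 without injured replicate 1.

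Genes for making ribosomes rose without exception in the list tested. All 43 ribosome biogenesis genes rose (median 2.00), as did 43 of 44 cytosolic ribosomal protein genes (median 0.95), for which reads of processed pseudogenes may be mixed in. Ncl, the nucleolar protein nucleolin, had 1214, 1103 and 1115 CPM in the injured libraries, against 211, 208 and 224 CPM in the uninjured libraries. Nop56, a core protein of the particles that methylate ribosomal RNA, had 409.7, 374 and 380.1 CPM in the injured libraries, against 63.7, 60.7 and 76.2 CPM in the uninjured libraries. The groups were far apart against a small spread within each (Ncl: log2 fold change 2.42 ± 0.11, adjusted p = 7.77e-14; Nop56: log2 fold change 2.54 ± 0.14, adjusted p = 1.87e-12). Polr1b, a subunit of the polymerase that makes ribosomal RNA, rose 2.22-fold. Among the 39 list members with a RefSeq promoter, 9 (23.077%) held the Myc-type E-box CACGTG, against 11.131% of tested genes. The share was 18.919% (7 of 37) in the DNA replication list and 31.25% (5 of 16) in the cholesterol synthesis list, whose genes fell.

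Supply of building blocks showed the same direction. All 20 aminoacyl-tRNA synthetase genes rose, Vars for valine by 5.28-fold and Gars for glycine by 2.68-fold. All 22 nucleotide synthesis genes rose, including Ctps, which makes CTP (12.8-fold), Impdh2, the guanine nucleotide enzyme (3.97-fold), and Cad, which starts pyrimidine synthesis (2.58-fold). Psat1, an enzyme of serine synthesis, had 431, 417 and 439.6 CPM in the injured libraries, against 25.97, 24.9 and 37.8 CPM in the uninjured libraries. Asns (chromosome 6, 7675169 to 7693254), asparagine synthetase, had 242, 245 and 262 CPM in the injured libraries, against 31.8, 17.7 and 33.8 CPM in the uninjured libraries. Their injured libraries were all higher (Psat1: log2 fold change 3.86 ± 0.23, adjusted p = 9.04e-12; Asns: log2 fold change 3.16 ± 0.34, adjusted p = 2.05e-07). The mitochondrial one-carbon enzymes Shmt2 and Mthfd2 rose 4.69-fold and 4.79-fold. Of the 22 genes of the whole ATF4, serine and one-carbon list, 11 rose and 2 fell.

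Asns carries, just before its RefSeq start, the composite element bound by ATF4 with C/EBP proteins, for which the gene is known. The match to TGATGNAA is in capitals and begins 23 bases before that start (GRCm38.p6, chr6:7693160-7693459, minus strand), which lies slightly inside the GENCODE span given above.

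Asns: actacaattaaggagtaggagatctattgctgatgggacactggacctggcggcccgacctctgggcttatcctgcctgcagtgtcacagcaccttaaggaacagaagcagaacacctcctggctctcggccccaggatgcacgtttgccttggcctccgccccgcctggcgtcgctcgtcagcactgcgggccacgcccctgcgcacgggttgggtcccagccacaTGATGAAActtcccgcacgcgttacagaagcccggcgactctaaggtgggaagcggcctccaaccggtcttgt

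Of the 21 list members with a RefSeq promoter, 6 (28.571%) held these letters, against 2.855% of the tested genes with one.

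Among 14 polyamine and arginine genes 4 rose and 4 fell (2 falls without injured replicate 1, uninjured replicate 1 or uninjured replicate 2). The shares over all genes were 18.3% and 23.6%, and whether the list differs from them was not tested. Odc1 and Srm, which make polyamines, rose 3.95-fold and 7.55-fold, and Sat1, which breaks them down, fell 2.29-fold (adjusted p = 1.22e-05, 1.62e-05 and 1.07e-07). Slc7a5 and Slc3a2, the pair of chains that imports large neutral amino acids, rose 4.79-fold and 1.797-fold.

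Protein folding genes of the cytosol and mitochondria mostly rose. Of 23 heat shock protein and chaperonin genes 18 rose, and of 18 ER stress and secretory folding genes 3 rose, none of them over 2-fold, and none fell. The number of these rises was 8 without injured replicate 1 or uninjured replicate 1, 7 without uninjured replicate 3, 5 without uninjured replicate 2, 6 with limma voom and 9 with no filter or in the 6 MSC libraries alone, while DESeq2 and RLE scaling gave 2 falls. Hspd1, the mitochondrial chaperonin, had 732, 660.3 and 679 CPM in the injured libraries, against 76.9, 65.9 and 72.6 CPM in the uninjured libraries, although part of its exons is shared with Hspe1. Hsp90aa1, the inducible cytosolic HSP90, had 423, 361 and 429 CPM in the injured libraries, against 83.1, 63.2 and 90.4 CPM in the uninjured libraries. Both were higher in all injured libraries (Hspd1: log2 fold change 3.26 ± 0.13, adjusted p = 5.99e-15; Hsp90aa1: log2 fold change 2.36 ± 0.18, adjusted p = 5.38e-10). Hspa5, the chaperone BiP of the endoplasmic reticulum, rose 1.36-fold (adjusted p = 0.00413). Of 37 proteasome genes, 33 rose and 1 fell, with a median log2 fold change of 0.96.

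Glucose use and respiration genes rose together, and lipid genes fell. Among 20 glycolysis genes 12 rose and 2 fell. Ldha, lactate dehydrogenase, had 2678, 2338 and 2569 CPM in the injured libraries, against 539.9, 459.9 and 545 CPM in the uninjured libraries. Pkm, pyruvate kinase, had 1741, 1455 and 1627 CPM in the injured libraries, against 413, 400.1 and 423 CPM in the uninjured libraries. Injured libraries were higher for both (Ldha: log2 fold change 2.30 ± 0.10, adjusted p = 7.77e-14; Pkm: log2 fold change 1.96 ± 0.12, adjusted p = 8.53e-12). Hk2 and the glucose transporter gene Slc2a1 rose 4.18-fold and 2.53-fold. The hypoxia list gave 2 rises and 4 falls among 16 genes, shares not far from the 18.3% and 23.6% of all genes, Hif1a being 2.39-fold higher and its target Bnip3 3.41-fold lower. Respiratory chain subunit genes rose in 35 of 42 cases by smaller amounts (median 0.62). Cholesterol synthesis genes fell in 14 of 23 cases (8 without uninjured replicate 1) and rose in none, with Hmgcs1 3.15-fold and Sqle 2.32-fold lower. In the adipogenic and lipid list 12 of 22 fell and 1 rose. Apoe, a lipid carrier, had 54.9, 179.7 and 101 CPM in injured cells and 565, 802 and 256 CPM in uninjured cells, and Zfp423, a factor of fat cell commitment, fell 5.37-fold. Antioxidant genes were mixed, with 8 rises and 5 falls among 21 NRF2 target and metallothionein genes, including a 10.5-fold rise of glutathione reductase (Gsr) and a 4.95-fold rise of thioredoxin reductase 1 (Txnrd1).

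Matrix genes of the resting tissue fell. All 6 fibrillar collagen genes tested fell, while 2 more were below the filter. The number of falls was 1 without injured replicate 1, 3 without uninjured replicate 1 or 2 and 3 in DESeq2. It was 6 with limma voom, with RLE scaling and in the 6 MSC libraries alone. Calls in the fit to 24 libraries thus changed when some single libraries were left out, although the groups do not overlap. Col3a1 had 3305, 3802 and 3082 CPM in the injured libraries, against 21905, 21115 and 12690.0 CPM in the uninjured libraries. Col1a1 had 1527, 1949.6 and 1599 CPM in the injured libraries, against 10889, 11149 and 5715 CPM in the uninjured libraries. Their injured libraries were lower by several times (Col3a1: log2 fold change -2.45 ± 0.72, adjusted p = 0.0111; Col1a1: log2 fold change -2.45 ± 0.72, adjusted p = 0.0115). Without injured replicate 1, Col3a1 was at an adjusted p of 0.0577 and Col1a1 at 0.0638, and Col1a1 was at 0.0815 in DESeq2. Col5a1, a minor fibrillar collagen, fell 4.04-fold with no change of call. Of 21 basement membrane and other collagen genes 14 fell (9 without injured or uninjured replicate 1) and 1 rose, with falls of 4.23-fold for Col6a1 and 6.08-fold for Col14a1.

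Elastic fiber and laminin genes fell in 14 of 22 cases and rose in 1. Eln, the gene of elastin, had 36.2, 57.02 and 45.1 CPM in the injured libraries, against 455, 478 and 384 CPM in the uninjured libraries. Lama2, a laminin chain of the muscle basement membrane, had 81.4, 111 and 90.9 CPM in the injured libraries, against 465, 467 and 559 CPM in the uninjured libraries. Both were lower in every injured library (Eln: log2 fold change -3.25 ± 0.25, adjusted p = 5.54e-10; Lama2: log2 fold change -2.39 ± 0.19, adjusted p = 5.46e-10). Fbn1 fell 3.303-fold, Mfap4 11.8-fold and Fbln5 9.01-fold, all parts of elastic microfibrils or their assembly. Of 12 small leucine-rich proteoglycan genes 7 fell and 1 rose, with Ogn 6.13-fold and Aspn 7.903-fold lower. Prg4, listed with them and encoding the lubricant lubricin, was the rise and had 5957, 5925 and 6974 CPM in the injured libraries, against 457, 408 and 1003 CPM in the uninjured libraries. Its injured libraries were all higher (log2 fold change 3.34 ± 0.36, adjusted p = 7.90e-07).

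Genes of the provisional matrix, which is laid down early after damage, rose more often, with 12 rises and 6 falls among 22. Tnc, the gene of tenascin C, had 460.2, 282 and 320.5 CPM in the injured libraries, against 4.02, 17.7 and 9.33 CPM in the uninjured libraries. Spp1, osteopontin, had 306, 39.3 and 85.2 CPM in the injured libraries, against 0, 0.672 and 0 CPM in the uninjured libraries, and its 2898 counts over the 3 injured libraries and 3 over the 3 uninjured libraries give a ratio of 769 (95% counting interval 263 to 3733). Cd44, the hyaluronan receptor, had 602, 469 and 416 CPM in the injured libraries, against 86.8, 86.5 and 107 CPM in the uninjured libraries. Injured libraries were higher for all of them (Tnc: log2 fold change 5.13 ± 0.49, adjusted p = 1.38e-07; Cd44: log2 fold change 2.41 ± 0.21, adjusted p = 1.01e-08). Has1, a hyaluronan synthase, rose 5.401-fold, and the heparan sulfate proteoglycan genes Sdc1 and Sdc4 rose 7.65-fold and 3.54-fold. Fn1, fibronectin, a main protein of the provisional matrix, went against the list and had 629, 659 and 402 CPM in the injured libraries, against 3764, 3774 and 2154 CPM in the uninjured libraries. Its injured libraries were all lower (log2 fold change -2.52 ± 0.37, adjusted p = 2.31e-05). Itga5, a chain of the fibronectin receptor, was the 1 rise among 16 integrin genes (3.72-fold higher), and 11 fell.

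**Figure D5:**
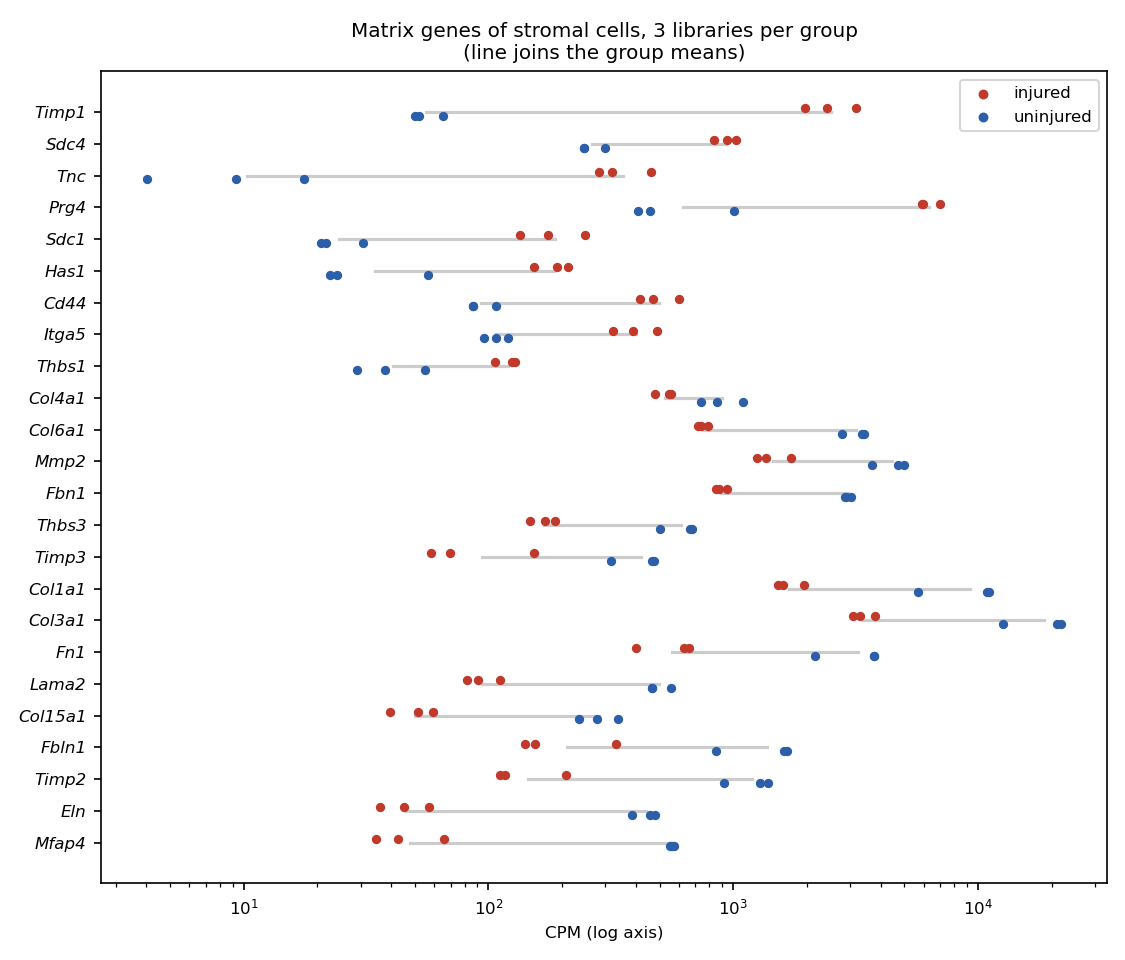
CPM (log axis) of 24 matrix genes in injured (red) and uninjured (blue) stromal cells, 3 libraries per group, with a grey line between the group means. Timp1, Tnc, Cd44 and Prg4 have their injured libraries to the right, and Col1a1, Col3a1, Fn1, Eln and Mfap4 to the left.

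Matrix turnover genes changed in opposite directions within a family. Timp1, an inhibitor of matrix metalloproteinases, had 3184, 1964 and 2412 CPM in the injured libraries, against 49.9, 52.2 and 65.1 CPM in the uninjured libraries. Timp2, its relative, had 111, 208 and 116 CPM in the injured libraries, against 1393, 1291 and 913 CPM in the uninjured libraries. The injured libraries were all higher for Timp1 and all lower for Timp2 (Timp1: log2 fold change 5.50 ± 0.58, adjusted p = 7.25e-07; Timp2: log2 fold change -3.05 ± 0.32, adjusted p = 3.45e-07). Timp3 fell 4.47-fold, and Mmp2, the gelatinase gene, fell 3.08-fold. In collagen processing, Plod2, which modifies collagen for hard crosslinks, and Loxl3 rose 2.54-fold and 2.17-fold, while the related crosslinking gene Loxl2 fell 3.77-fold and Pcolce2 fell 6.38-fold. Actin cytoskeleton genes rose in 11 of 24 cases and fell in 5 (3 without uninjured replicate 1 or 2), with Actn1 5.05-fold and Tpm4 2.16-fold higher.

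Complement and interferon-stimulated genes mostly fell. Genes of the complement list fell in 11 of 15 cases, in 7 without injured replicate 1 or with no filter, and rose in none. The list also holds C1qtnf1, a C1q and TNF related gene. C7, a part of the membrane attack complex, had 7.55, 35.8 and 19.6 CPM in the injured libraries, against 235, 248 and 105 CPM in the uninjured libraries, and the protease gene C1s1 fell 3.11-fold. The libraries of C7 did not overlap (log2 fold change -3.23 ± 0.50, adjusted p = 2.70e-04). C3 had 335 ± 136 CPM in injured cells, against 1342 ± 581 CPM in uninjured cells (adjusted p = 0.00913), and its call was lost in 4 of the 13 alternatives, among them without injured replicate 1 (adjusted p = 0.0722) and without uninjured replicate 1 (0.0543). Of 27 interferon-stimulated genes 17 fell and 1 rose, 7 of the falls being over 2-fold. Without injured replicate 1 or 3 there were 10 falls, and without uninjured replicate 1 or 2 there were 9. Usp18, a brake on interferon signaling, had 14.3, 22.9 and 10.96 CPM in injured cells and 60.3, 63.4 and 34.7 CPM in uninjured cells (log2 fold change -1.72 ± 0.26, adjusted p = 1.07e-05), and Gbp2, an interferon-induced GTPase, fell 2.36-fold. MHC class I genes fell in 5 of 11 cases, B2m by 1.94-fold and H2-K1 by 1.901-fold, and none rose. Of 14 Toll-like receptor and adaptor genes 5 fell and 2 rose, against 23.6% and 18.3% of all genes. There were 2 falls without injured or uninjured replicate 1, 3 without uninjured replicate 2 and 1 rise without injured replicate 3. Tlr2 and Tlr4, sensors of microbial and damage products, fell 3.87-fold and 2.68-fold, and their adaptor gene Myd88 rose 1.92-fold.

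The 12 largest rises, taken by a fixed rule of size, also included Serpinb2, an inhibitor of plasminogen activators, which had 730 counts over the 3 injured libraries and 0 over the 3 uninjured libraries and was at least 194-fold higher. Among the 9 HGF and plasminogen activation genes 3 rose and 3 fell, against 18.3% and 23.6% of all genes. The falls were 1 without any 1 of the injured replicates, without uninjured replicate 1 or 2 and with no filter. The rises included the urokinase receptor gene Plaur at 59.2 ± 15.2 CPM in injured cells, against 9.24 ± 0.605 CPM in uninjured cells (log2 fold change 2.68 ± 0.32, adjusted p = 8.15e-07). Rgs16, which shuts off G protein signals of chemokine receptors, had 76.05, 81.6 and 66.1 CPM in injured cells and 0, 2.02 and 0 CPM in uninjured cells (log2 fold change 6.88 ± 0.62, adjusted p = 2.60e-08). Uhrf1, a member of the DNA replication list that keeps DNA methylation through replication, had 183, 104 and 143 CPM in injured cells and 1.68, 2.02 and 0.666 CPM in uninjured cells (log2 fold change 6.58 ± 0.55, adjusted p = 1.07e-08). Rgs16 and Uhrf1 were near or at 0 in the uninjured libraries.

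The 12 largest falls by the same rule held several muscle fiber genes. Among the others was Car3, a carbonic anhydrase gene of muscle and fat, with 0.2796, 0 and 0.1797 CPM in injured cells and 179, 2.91 and 2.44 CPM in uninjured cells, a level that was high in uninjured replicate 1 only. Its fall passed (adjusted p = 0.002199) and was lost without that library (0.0598) and in the 6 MSC libraries alone (0.0801). Dact2, a regulator of Wnt signaling, had 1.26, 0.497 and 0.1797 CPM in injured cells and 19.4, 34.5 and 15.1 CPM in uninjured cells, and C1qtnf3, a secreted C1q and TNF related protein gene, had 1.26, 0.497 and 0.1797 CPM in injured cells and 20.1, 23.7 and 26.9 CPM in uninjured cells. Both were lower in all injured libraries (Dact2: log2 fold change -5.05 ± 0.88, adjusted p = 1.58e-04; C1qtnf3: log2 fold change -5.04 ± 0.44, adjusted p = 5.66e-08). Further falls were those of Olfml2a, a matrix glycoprotein gene with 2.52, 6.299 and 4.13 CPM in injured cells and 141, 162 and 141 CPM in uninjured cells (log2 fold change -5.11 ± 0.32, adjusted p = 7.97e-11), and Ramp1, a part of the receptor of the neuropeptide CGRP, with 1.68, 6.96 and 8.99 CPM in injured cells and 174, 148 and 186 CPM in uninjured cells (log2 fold change -4.88 ± 0.50, adjusted p = 1.57e-07). Itgb7, an integrin chain best known from lymphocytes, had 2.24, 3.98 and 1.44 CPM in injured cells and 86.6, 87.1 and 24.9 CPM in uninjured cells (log2 fold change -4.68 ± 0.50, adjusted p = 4.87e-07), while Ptprc, the general leukocyte marker, did not pass 2 CPM in any library. Ighm, an immunoglobulin heavy chain gene of B cells, had 1.398, 0 and 0.1797 CPM in injured cells and 85.5, 73.9 and 22.9 CPM in uninjured cells (log2 fold change -6.65 ± 1.06, adjusted p = 7.32e-05), beside the leukocyte marker sums given above, and the part of such cells was not tested. Gsn, which severs actin filaments, held 2.40% of counts in injured and 8.96% in uninjured libraries, and Vim, the intermediate filament of mesenchymal cells, had 9481 ± 427 CPM in injured cells, against 5107 ± 229 CPM in uninjured cells (log2 fold change 0.89 ± 0.12, adjusted p = 3.10e-06).

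The response of MSC to injury differed from the mean response of the other 3 populations for 1040 genes (6.39%) with a higher and 1348 (8.29%) with a lower fold change in MSC (edgeR, adjusted p below 0.05). The placental growth factor gene Pgf, a VEGF family ligand, fell in MSC, with 10.8 ± 3.84 CPM in injured cells, against 55.3 ± 12.6 CPM in uninjured cells (log2 fold change -2.37 ± 0.37, adjusted p = 3.49e-05). In CD31+ cells it was at 692 CPM after injury and 12.2 CPM without, a log2 fold change of 5.78, and the difference between the MSC and the mean of the other responses was -6.27 (adjusted p = 4.16e-07). Lmcd1, a LIM domain protein gene, had 45.1 ± 5.84 CPM in injured cells, against 1.28 ± 0.683 CPM in uninjured cells in MSC, while CD31+ cells had 167 CPM with and 339.6 CPM without injury, and the difference in response was 5.84 (adjusted p = 4.16e-07).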

How the data were processed

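RNA sequencing libraries of sorted MSC from injured and uninjured muscle (3 each) were analysed, together with 18 libraries of 3 other sorted populations that entered the model. The authors deposited a table of raw, unnormalized read counts with 1 row per symbol. The mouse build mm10, the aligner STAR 2.5.4 and featureCounts are listed in the submitters' processing notes, and no source used here gives the annotation, multi-mapping rule or strand setting. Per the labels' protocols, an oligo(dT) primer started cDNA synthesis, and cDNA was amplified by PCR, tagged with Nextera XT and sequenced as 2 reads of 25 bases. Strand is not marked in this protocol and no molecular identifiers are described, so PCR copies count as reads, intervals and floors cover counting error only, and reads of overlapping genes on opposite strands cannot be told apart (this touches 63 of the 191 genes whose values are given and that have a position).

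In edgeR 4.0.16 (R 4.3.3) genes were filtered over the 8 groups, library sizes were scaled by TMM (0.987 to 1.015 in injured and 0.782 to 0.880 in uninjured MSC), 1 mean per group was fitted to 24 libraries (16 residual degrees of freedom) and the quasi-likelihood test was robust, with Benjamini-Hochberg adjustment. SE is the fold change over the square root of F. The script was tested on simulated counts for 16263 genes with 200 changed genes of this comparison, and in 2 such simulations recovered 58% and 49% at a log2 change of 1 and 95% and 98% at 2. False calls numbered 10 in each, 6.13% and 6.37% of the calls. The changed genes were drawn only from those with higher counts, and recovery at low counts was not tested. Simulated spread followed the trend over expression level, not the spread of each gene. Only the 200 genes changed, whereas 41.9% of genes were called in the data, so these shares may not hold for this comparison. Libraries were compared by chi-square per degree of freedom, 5.1 to 16.3, and none repeated another. Alternatives were RLE scaling, no filter, DESeq2 1.42.0, limma voom (limma 3.58.1), the 6 MSC libraries alone, a replicate block and leaving out each MSC library.

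The members, the 67 gene lists and the tests were chosen with earlier results of these data known. The lists held 1207 genes, of which 1163 were tested, 40 were below the filter and 4 were not among the symbols. Genes were named by rule: the 12 largest rises and falls (at least 20 CPM, no overlap, unnamed models left out), key genes of each list, up to 5 further members that passed and 2 that did not (any member of lists of up to 12), the 4 largest differences in response per direction, and the 10 genes with most counts per group; some genes the rule names are not reported here. Positions are from GENCODE vM21 on GRCm38 (49439 symbols matched) and promoters from RefSeq on GRCm38.p6.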

Additional observations from a re-analysis of the deposited data

Results flagged for a closer look

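The response of MSC to injury differed by the test of the difference from the mean response of CD31+, CD45+ and MuSC populations for 8 genes taken by size, 4 in each direction. Differences are log2 fold changes of MSC minus that mean (edgeR's quasi-likelihood test, Benjamini-Hochberg adjustment). They were 5.96 for Steap1 (adjusted p = 0.0265), 5.84 for Lmcd1 (4.16e-07), 5.68 for Rad51ap1 (1.01e-05) and 5.66 for Shcbp1 (0.00774), and -6.44 for Ighm (0.0182), -6.27 for Pgf (4.16e-07), -5.87 for Pla1a (1.02e-05) and -5.86 for Pi16 (0.00226). Several rest on other populations with little signal. Steap1, a metalloreductase gene, was at 0 CPM in injured and 0.307 CPM in uninjured CD31+ cells, and it rose in MuSC too (58.9 CPM in injured and 5.03 CPM in uninjured cells). Rad51ap1, a DNA repair gene, also rose in MuSC (65.6 CPM in injured and 2.59 CPM in uninjured cells), as did Shcbp1, a gene of dividing cells (41.5 and 4.91 CPM). In CD45+ cells Rad51ap1 fell, with 0.545 CPM in injured and 6.50 CPM in uninjured cells (adjusted p = 0.00110). In CD31+ cells it was at 9.62 CPM with and 17.9 CPM without injury. Pla1a, a phospholipase gene, was at 2.00 CPM in injured and 0 CPM in uninjured MuSC, and Pi16 at 0.496 and 0 CPM. In CD45+ cells Pla1a was at 26.8 CPM with and 0.656 CPM without injury. Ighm was at 118 CPM in injured and 2027 CPM in uninjured CD45+ cells, a fall as in MSC. In CD31+ cells Ighm was at 11.7 CPM with and 0.382 CPM without injury, a rise.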

How the results depend on the processing

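Of the 192 genes whose values are given, 179 kept their direction and their side of the threshold in every alternative that tested them (all 13, or 11 for Il18r1), none of the 192 reversed, and the 13 that changed sides are Aqp1, Car3, Dcn, Ly6a, Pdgfra, Il33, Cxcl14, Igf1, Gdf10, Mki67, Col1a1, Col3a1 and C3. Leaving out each MSC library in turn gave 2671 to 3166 rises and 2258 to 3389 falls, with 1672 to 2032 rises and 1659 to 2545 falls over 2-fold; the lowest numbers of falls, 2258 and 1659, came without injured replicate 1. Genes with a different response in MSC numbered 1775 to 2208 in these fits, which tested 17267 to 17319 genes because the smaller group lowers the filter. RLE scaling gave 2674 rises and 4292 falls, DESeq2 gave 2766 and 4464, limma voom gave 3131 and 4207, no filter gave 3372 and 2792 (43134 genes tested) and the 6 MSC libraries alone gave 3667 and 3453 (12424 genes tested). The share of rises among the calls was 43.7% as reported and ran between 38.3% in DESeq2 and 56.7% without injured replicate 1. The median gene had a log2 fold change of -0.22 as reported, -0.30 with RLE scaling and -0.03 in the 6 MSC libraries alone. The labels do not say whether same-numbered libraries share a mouse. Deviations from the group means of same-numbered injured and uninjured MSC libraries correlated at -0.06, -0.02 and 0.07. Differently numbered ones gave -0.07 to 0.10. With 3 libraries per group these values cannot decide whether libraries were paired. Sharing of mice between the sorted populations was not tested. With the replicate number as a block, 2930 genes rose and 3736 fell, and with the block in the 6 MSC libraries alone 3597 rose and 3387 fell. At these depths a gene at 0 in a library could be at up to 0.419 to 0.672 CPM. Splits of reads between close copies and between overlapping genes could not be checked from the counts. At an unadjusted p below 0.05, 7909 genes passed.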

Other observations

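Gene groups not described above were mixed or small in number. Over all genes tested 18.3% rose and 23.6% fell, and differences of these lists from those shares were not tested. Of 14 neurotrophic and guidance genes 2 rose and 7 fell, and the falls were 4 without injured replicate 1 or without uninjured replicate 2, and the rises 1 without any 1 library but uninjured replicate 3, without which there were 0. Sema3c and Sema3b, secreted guidance cues, had 62.4 against 366 CPM and 10.8 against 134 CPM in injured against uninjured cells, and the neurotrophin gene Ntf3 had 6.29, 12.4 and 7.91 CPM in injured cells and 51.9, 62.7 and 53.3 CPM in uninjured cells. All libraries of injured cells were lower for these genes (adjusted p = 2.83e-07, 1.14e-05 and 1.16e-08). Among 18 prostaglandin genes 2 rose and 4 fell, with the cyclooxygenase gene Ptgs1 6.14-fold lower and the receptor gene Ptger4 2.397-fold higher. Glucocorticoid-responsive genes split into 4 rises, among them Sgk1 (3.18-fold) and the EGF receptor inhibitor Errfi1 (4.13-fold), and 6 falls among 13 (3 falls without injured replicate 1 or uninjured replicate 3). FGF genes gave 2 rises and 4 falls among 18 (1 rise without injured replicate 1 or 2 or uninjured replicate 1 or 2, and 7 falls in DESeq2), with Fgf1 10.1-fold lower.

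Against 18.3% and 23.6% of all genes, rises and falls numbered 3 and 2 of 16 for p53 targets and 3 and 11 of 23 for stromal lineage transcription factors. For immediate early genes they were 5 and 3 of 17 (3 rises without uninjured replicate 1 or 2). Among the lineage factors, Ebf2 had 44.5, 51.6 and 43.1 CPM in the injured libraries, against 161, 160.0 and 163 CPM in the uninjured libraries. Its injured libraries were all lower (log2 fold change -1.80 ± 0.36, adjusted p = 3.47e-04).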
